A study of Arabidopsis thaliana with 21 samples.

Results

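The genes described here build and loosen the plant cell wall. They were chosen by a rule on names, with earlier results of these arrays known. A probe set had to be paired with exactly 1 gene whose RefSeq symbol begins with EXPA, EXPB, EXLA, EXLB, XTH, GH9, CESA, CSL or PME followed by a digit or a letter. Of several probe sets of a gene, the brightest on average was taken. This gave 61 genes out of 134 genes of the RefSeq annotation with such symbols, on an array table of 17481 probe sets that carry a gene name. They comprised 13 of 24 alpha-expansins (EXPA), 5 of 6 beta-expansins (EXPB), all 4 expansin-like genes (EXLA and EXLB), 9 of 30 xyloglucan endotransglucosylase/hydrolases (XTH), 19 of 21 endoglucanases of glycoside hydrolase family 9 (GH9), 8 of 26 cellulose synthase-like genes (CSL) and 2 of 12 pectin methylesterases (PME). These totals count genes whose symbols match the rule and not whole families. None of the 7 genes with a CESA symbol was on a single-gene probe set, nor any of the 3 pectin methylesterase inhibitors with a PMEI symbol. They were therefore not analysed here. The spelling rule also caught PMEAMT, which encodes a phosphoethanolamine methyltransferase of phospholipid synthesis and no wall enzyme. It is counted among the 61 and described apart, which leaves 60 wall genes.

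A growing root cell enlarges by letting turgor stretch a wall of cellulose microfibrils held in a matrix of xyloglucan and pectin. Expansins loosen the contacts between these polymers without cutting them, XTH enzymes cut and rejoin xyloglucan chains, and GH9 endoglucanases act on cellulose-like glucan chains at the plasma membrane or in the wall. CSL proteins synthesise backbones of matrix polymers such as xyloglucan and mannan, and pectin methylesterases remove methyl groups from pectin and so alter its stiffness. In roots many of these genes are active in the elongation zone and in growing root hairs, and several XTH and expansin genes are known to respond to touch, hormones and altered loading.

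Expression was measured on Affymetrix AraGene 1.0 ST arrays in whole roots of 12-day-old wild-type Arabidopsis thaliana of the Wassilewskija (WS) cultivar, grown under 24 h light. All seedlings had been moved the day before into hand-operated fixation tubes lined with wet tissue and were flown on a C-9 aircraft, which alternates climbs at raised gravity with arcs near weightlessness. RNAlater was released onto them in flight. The 7 groups were level flight (fixed 1 min before the first parabola), the start of parabola 1 (on pitching up into the climb), the midpoint of parabola 1 at the passage from raised gravity to near weightlessness in tubes A and B (worked by different crew members), and the ends of parabolas 1, 3 and 10. Each group was 1 tube with 3 root pools, so that stage and tube cannot be told apart in any comparison with level flight. Tubes A and B allow tubes of the same stage to be compared, but level flight was 1 tube for them too. The p-values measure the spread between pools of a tube. Level flight was the reference, and no ground sample is among the 21 arrays.

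The values are log2 expression values after robust multi-array averaging (RMA), and a difference of 1 on this scale is 2-fold. Array medians lay between 2.92 and 3.04 and correlations between arrays between 0.9812 and 0.9935 over the named probe sets. Of the 61 genes, 21 lay above the median of every array, 21 above that of none and 19 above it on some arrays. Genes below it were not shown to be above background, and levels of different genes are not compared because each probe set has its own brightness. As a check of the tissue, 2 of 14 listed root marker genes were measured, EXPA7 and EXPA18, and 2 of 20 shoot marker genes. The shoot genes RCA and LHCB4.1 were above the array medians, with tube means from 4.32 to 4.70 and from 3.93 to 4.56. Both were lowest in level flight, the reference tube. Neither differed over the tubes by limma's moderated F test (adjusted p = 0.502 and 0.31). Their part in the results below was not tested.

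Over the 7 tubes, 14 of the 61 genes differed by limma's moderated F test at an adjusted p under 0.05. This was 23.0% of them beside 7.91% of all 17481 probe sets tested. An unadjusted p under 0.05 was reached by 30 of the 61, a larger share than the 22.1% of all. The 14 called genes included the alpha-expansins EXPA4, EXPA15 and EXPA20, the beta-expansins EXPB1 and EXPB3, and the xyloglucan enzymes XTH18, XTH19 and XTH32. The rest were the endoglucanases GH9B8, GH9C1 and GH9C2, the glucan synthases CSLC04 and CSLD2, and the pectin methylesterase PMEPCRF. GH9B8 had the smallest adjusted p of the 61 (7.85e-05) and EXPA15 the largest among those called (0.05). Shares were higher among bright probe sets: of the 34 members brighter than the median probe set, 14 were called in a fit of bright probe sets alone, 41.2% beside 19.2% of the 8878 bright probe sets. The median difference between a member's highest and lowest tube mean was 0.48, against 0.33 over all tested probe sets, and the median SD between arrays of a tube was 0.2 against 0.17. Without parabola 10 end replicate 2, 9 genes were called. With the tube treated as a random source of variance (correlation 0.221, estimated from tubes A and B alone), GH9B8 alone was called (adjusted p = 0.0131). That fit joined tubes A and B into the same stage, so its F test compared fewer groups.

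**Figure D1:**
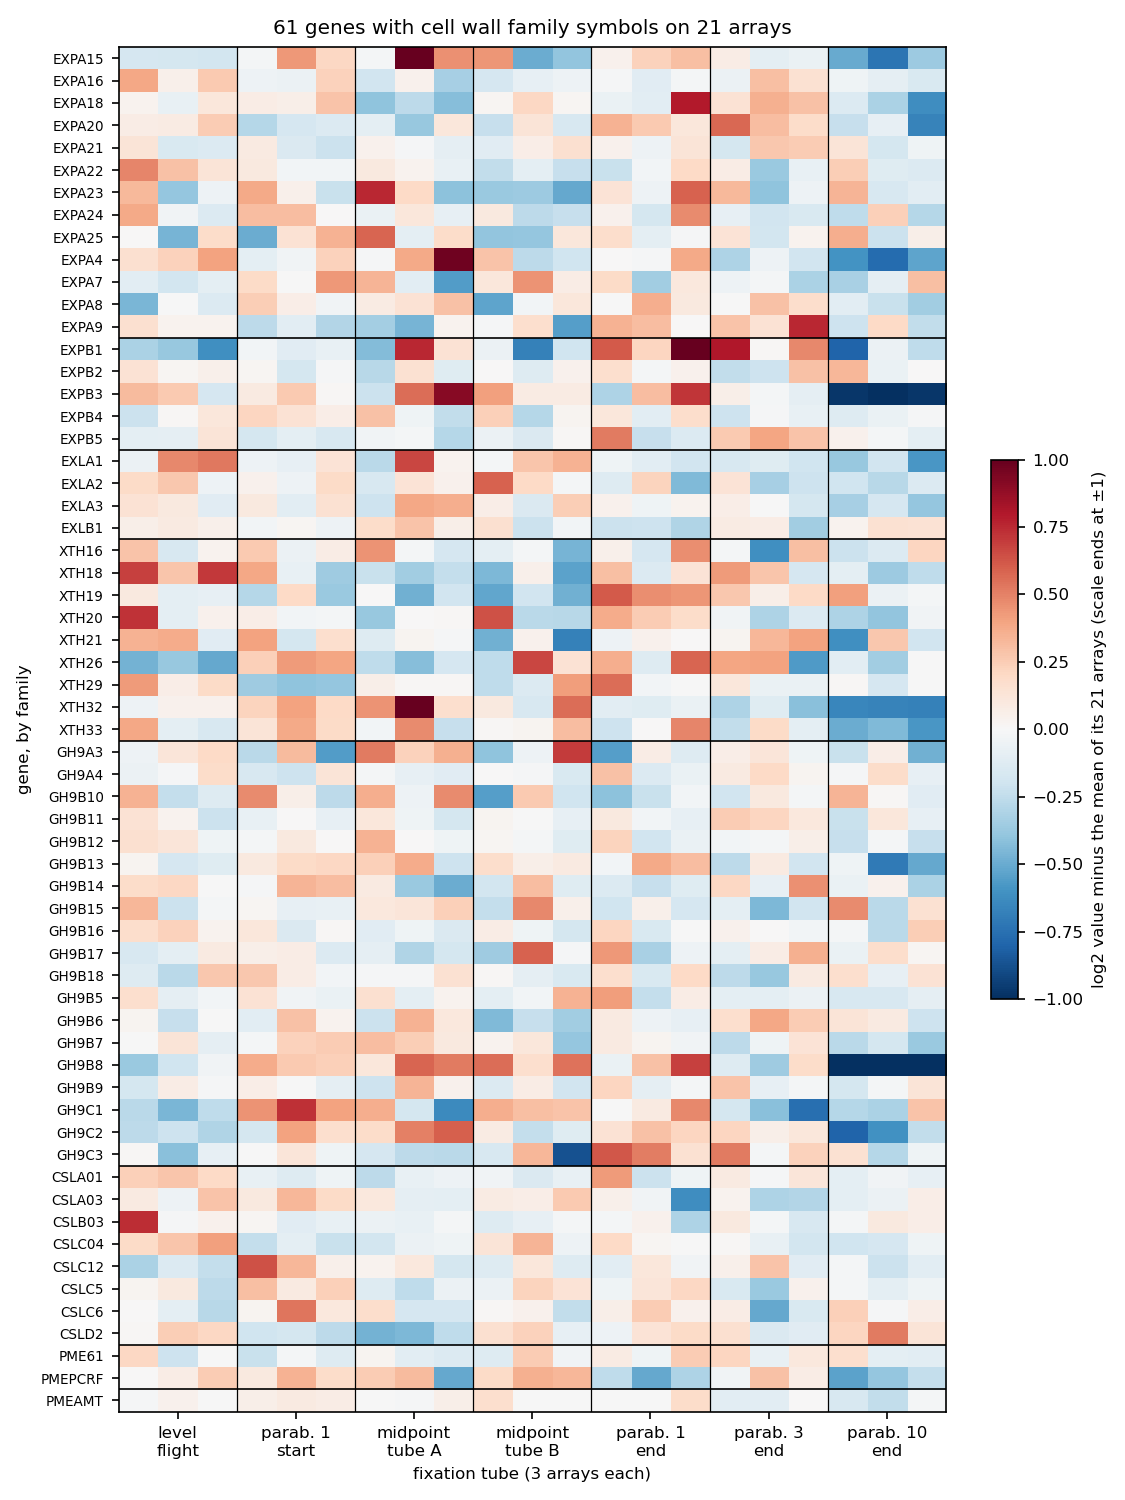
Log2 value of each of the 61 genes (rows, grouped by family, with PMEAMT last) on each of the 21 arrays (columns, 3 per tube), as the difference from the gene's own mean over all arrays. The 3 columns of parabola 10 end are blue for EXPB3, GH9B8, XTH32, XTH33 and EXPA4, and the 3 level flight columns are red for XTH18 and blue for XTH26.

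The comparisons with level flight asked which wall genes differed once parabolic flight had begun. Here rose and fell stand for differences between tubes. At parabola 1 start, 3 genes rose and 2 fell, 8.2% of the members beside 4.16% of all probe sets (1.41% higher and 2.76% lower). In midpoint tube A, 2 rose and 3 fell, again 8.2%, beside 5.14% (1.65% higher and 3.48% lower). At parabola 10 end none rose and 5 fell, 8.2% beside 0.972% of all probe sets lower, 0.475% higher and 1.45% either way. Between the ends of parabola 10 and parabola 1, none was higher and 6 were lower, 9.84% beside 1.02% of all probe sets lower, 1.31% higher and 2.33% either way. Limma called no member at an adjusted p under 0.05 in midpoint tube B, at parabola 1 end or at parabola 3 end. Of all probe sets, 0.0458% were called in tube B (0.0172% higher, 0.0286% lower), 1.14% at parabola 1 end (0.28% higher, 0.864% lower) and 0.458% at parabola 3 end (0.126% higher, 0.332% lower). At an unadjusted p under 0.05 these 3 tubes gave 10, 16 and 11 of the 61 members. Each was a larger share than that of all probe sets, at 8.16%, 13.3% and 10.6%. In bulk roots, fewer cells of a type and less RNA per cell cannot be told apart. The comparisons with level flight share its 3 arrays, and the list was chosen with earlier results of these arrays known.

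Parabola 10 end held the lowest tube mean of 21 of the 61 members, 34.4%, and of 17.4% of all tested probe sets. It held the highest mean of 2 members, 3.28% beside 13.8%. Against level flight, the 3 arrays of 20 members lay all below the 3 of level flight, 32.8% beside 10.6% of all probe sets, and those of 1 member all above, beside 10.5%. Against parabola 1 end, 19 members lay all below, 31.1% beside 10.5%, and 1 all above, beside 7.97%. Among bright probe sets the pattern was similar: 15 of 34 bright members had their lowest mean at parabola 10 end, 44.1% beside 15.6%. The members' median difference from level flight was -0.16 at this stage, where all probe sets had a median of 0, and 41 of the 61 values were below 0. At the other stages the members' median lay between -0.07 and 0.05. Level flight itself was seldom the lowest tube, for 4 members or 6.56% beside 16.7%.

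**Figure D2:**
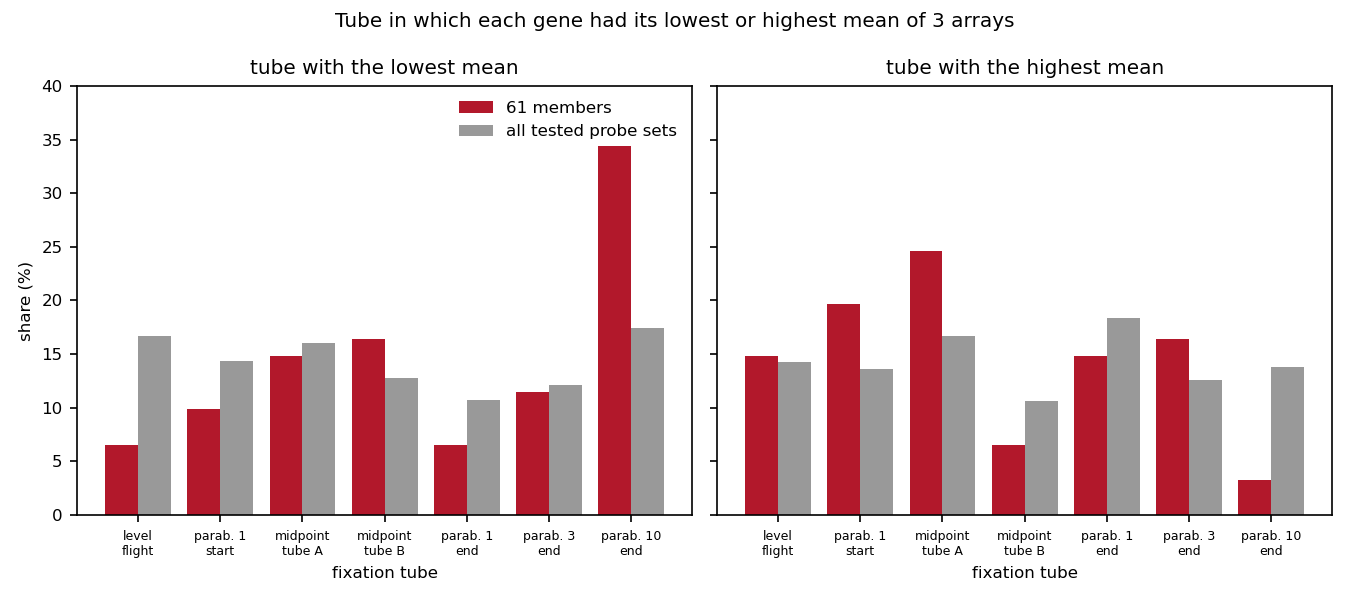
Share of the 61 members (red) and of the 17481 tested probe sets (grey) whose lowest (left) or highest (right) tube mean fell in each tube, in percent. The tallest red bar on the left is parabola 10 end (34.4% of members, 17.4% of all), and on the right midpoint tube A (24.6% of members, 16.7% of all).

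Among the alpha-expansins, the wall-loosening proteins of acid-induced growth, EXPA4 fell most clearly. Its values were 3.34, 3.41 and 3.58 in level flight and 2.58, 2.41 and 2.65 at parabola 10 end, so that the groups did not overlap. The difference was -0.89 (SE 0.19, 1.86-fold, limma adjusted p = 0.0199). Against parabola 1 end (3.18, 3.17 and 3.56) the difference was -0.75 (SE 0.19, adjusted p = 0.0352). At parabola 10 end EXPA4 lay below the array medians and was not shown to exceed background there. Over all tubes it lay above the medians on 15 of 21 arrays. Midpoint tube A had the highest mean and the widest spread of EXPA4, at 3.17, 3.56 and 4.15.

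EXPA20 varied over the tubes (F test adjusted p = 0.0292), with its highest mean at parabola 3 end (5.04 ± 0.20, SD, n = 3) and its lowest at parabola 10 end (4.36 ± 0.31). It is the one member with 2 probe sets. Both gave -0.56 for parabola 10 end against parabola 1 end, the brighter with adjusted p = 0.0503 and the second with adjusted p = 0.0246. They parted at parabola 1 start, where the brighter read -0.33 against level flight and the second 0.23, neither of them called. The second was highest at parabola 1 start (4.60 ± 0.12) and lowest at parabola 10 end (4.03 ± 0.19). At parabola 3 end it read 4.33 ± 0.16, beside 4.36 ± 0.12 in level flight, so the high value of EXPA20 there rests on the brighter probe set. EXPA15 was at 3.26 ± 0.01 in level flight, 3.93 ± 0.53 in midpoint tube A and 2.90 ± 0.18 at parabola 10 end. Its pairwise differences did not pass, and its F test was at the threshold. EXPA9, the brightest probe set of the family, ranged from 5.95 ± 0.26 in midpoint tube A to 6.60 ± 0.32 at parabola 3 end and was not called in any comparison. Over the 13 alpha-expansins, the median difference from level flight was -0.17 at parabola 10 end, with 9 values below 0, -0.21 in midpoint tube B, with 8 below 0, and 0.11 at parabola 1 end, with 10 values above 0.

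EXPB3, a beta-expansin, showed the largest fall of the 61 genes against level flight. It read 7.09, 7.03 and 6.60 in level flight and 5.80, 5.47 and 5.80 at parabola 10 end. The difference was -1.22 (SE 0.23, 2.33-fold, adjusted p = 0.0104). None of the 18 arrays of the other tubes came down to the parabola 10 end values: the lowest of them was 6.46, at parabola 1 end. Against parabola 1 end (6.46, 7.08 and 7.49) the difference was -1.32 (SE 0.23, 2.5-fold, adjusted p = 0.00303). In the 5 earlier in-flight tubes EXPB3 stayed within 0.28 of level flight, with means from 6.75 to 7.19.

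EXPB1 followed another course. It was at 3.04, 2.98 and 2.74 in level flight, near the array medians, at 3.97, 3.57 and 4.35 at parabola 1 end and at 2.56, 3.30 and 3.10 at parabola 10 end. The arrays of parabola 1 end lay all above those of both other tubes. The value of 1.04 against level flight (SE 0.26, 2.06-fold) had adjusted p = 0.0502 and was not called, while the difference of -0.97 between parabola 10 end and parabola 1 end was (SE 0.26, adjusted p = 0.0482). Parabola 3 end lay between them at 3.79 ± 0.40. The remaining beta-expansins, EXPB2, EXPB4 and EXPB5, differed from level flight by at most 0.33 in any tube.

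The expansin-like genes, relatives of expansins whose wall activity is not established, gave no call. EXLA1, the brightest probe set among them, read 5.59, 6.13 and 6.18 in level flight and 5.27, 5.46 and 5.07 at parabola 10 end, a difference of -0.70 (SE 0.18, adjusted p = 0.0604) with no overlap. All 4 had values below 0 against level flight at the ends of parabolas 1 and 3, with medians of -0.28 and -0.20.

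Of the xyloglucan enzymes, XTH18 was highest in level flight and lower in each of the other tubes. It belongs to a root-expressed group of closely related XTH genes. Its level flight values were 5.53, 5.12 and 5.55, those of midpoint tube A 4.62, 4.50 and 4.61, and those of parabola 10 end 4.75, 4.48 and 4.59. XTH18 fell by 0.82 on the log2 scale in tube A (SE 0.19, 1.77-fold, adjusted p = 0.011) and by 0.79 at parabola 10 end (SE 0.19, adjusted p = 0.0395). Tube B, at 4.40, 4.90 and 4.31, had a value of -0.86 against level flight and did not overlap it either, without a call. The 6 values against level flight ran from -0.86 to -0.38, and they share the same 3 level flight arrays.

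XTH32 read nearly the same on the 3 arrays of parabola 10 end, at 3.27, 3.25 and 3.24. Level flight read 3.87, 3.96 and 3.96, parabola 1 end 3.81, 3.80 and 3.85, and midpoint tube A 4.37, 5.07 and 4.09. Its lowest and highest tube means differed by 1.25, and it passed the F test (adjusted p = 0.00194). The values of -0.68 against level flight (adjusted p = 0.0666) and -0.56 against parabola 1 end at parabola 10 end did not pass, although no array of any other tube read as low. XTH33 was also lowest there, at 3.03 ± 0.31 in level flight and 2.48 ± 0.07 at parabola 10 end, without a call. All 9 XTH genes were below 0 between parabola 10 end and parabola 1 end, with a median of -0.40 beside -0.04 for all probe sets, and none passed singly. Of these 9, 3 lay above the median of every array and 2 above that of none. XTH29, which lay above the array median on 1 of 21 arrays, fell by 0.61 at parabola 1 start (SE 0.16, adjusted p = 0.0289), from 2.70 ± 0.19 to 2.09 ± 0.02.

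**Figure D3:**
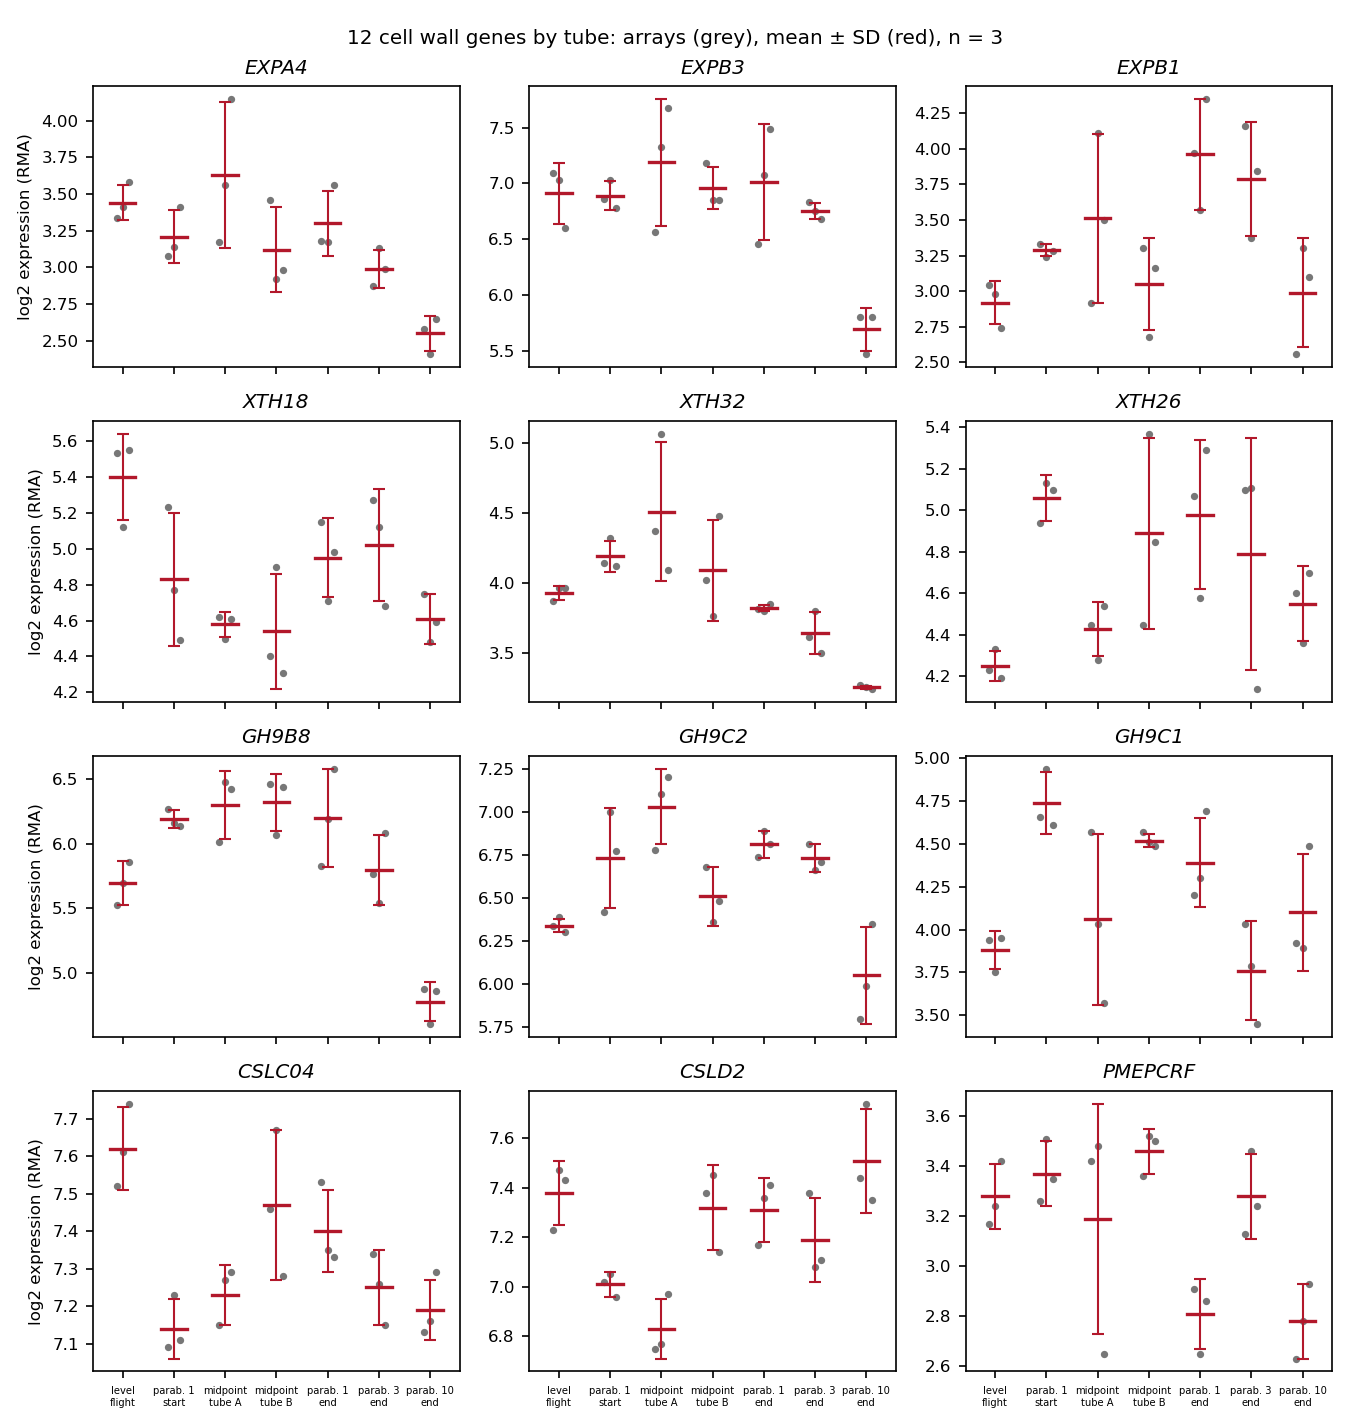
Log2 expression of 12 members in the 7 tubes, with each array in grey and the mean ± SD of 3 arrays in red; each panel has its own vertical scale. GH9B8, EXPB3, XTH32 and EXPA4 have all 3 arrays of parabola 10 end below those of every other tube, whereas CSLD2 is lowest in midpoint tube A and XTH18 highest in level flight.

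The endoglucanase GH9B8 had the widest span of the 61 genes, 1.54 between its highest and lowest tube mean. It was at 5.53, 5.70 and 5.86 in level flight and higher early in flight, at 6.27, 6.16 and 6.14 at parabola 1 start, 6.01, 6.48 and 6.42 in midpoint tube A, 6.46, 6.07 and 6.44 in tube B and 5.83, 6.19 and 6.58 at parabola 1 end. Parabola 3 end was back near level flight at 5.77, 5.54 and 6.08, and parabola 10 end was the lowest tube at 4.88, 4.61 and 4.86. The rise of 0.61 in tube A was called (SE 0.17, 1.53-fold, adjusted p = 0.044). Values of similar size at parabola 1 start (0.50), in tube B (0.63) and at parabola 1 end (0.50) were not. At parabola 10 end the difference of GH9B8 from level flight was -0.91 (SE 0.17, 1.88-fold, adjusted p = 0.0104). Against parabola 1 end it was lower still, with a difference of -1.42 (SE 0.17, 2.67-fold, adjusted p = 6.88e-05). That difference also passed with the tube as a random block (adjusted p = 0.00565; from 1.96e-05 to 0.0119 over all alternative settings other than leaving out arrays).

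GH9C2, an endoglucanase of the subclass that carries a carbohydrate-binding module, was called in 2 comparisons. It read 6.34, 6.39 and 6.30 in level flight, 6.78, 7.10 and 7.20 in tube A, 6.74, 6.89 and 6.81 at parabola 1 end and 5.80, 5.99 and 6.35 at parabola 10 end. It rose by 0.68 in tube A (SE 0.15, 1.61-fold, adjusted p = 0.00723) and differed by -0.77 between parabola 10 end and parabola 1 end (SE 0.15, adjusted p = 0.00601). Against level flight its value at parabola 10 end was -0.30, with overlapping arrays and no call. GH9B13 was also lower at parabola 10 end than at parabola 1 end, by -0.64 (SE 0.16, adjusted p = 0.0356), with 6.54, 5.87 and 6.07 against 6.55, 6.96 and 6.89. GH9B7, the brightest probe set of the family, ranged only from 7.22 ± 0.10 at parabola 10 end to 7.71 ± 0.11 in tube A and gave no call. Of the 19 GH9 genes, 10 were below the array median on every array, and none of these was called in any comparison.

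**Figure D4:**
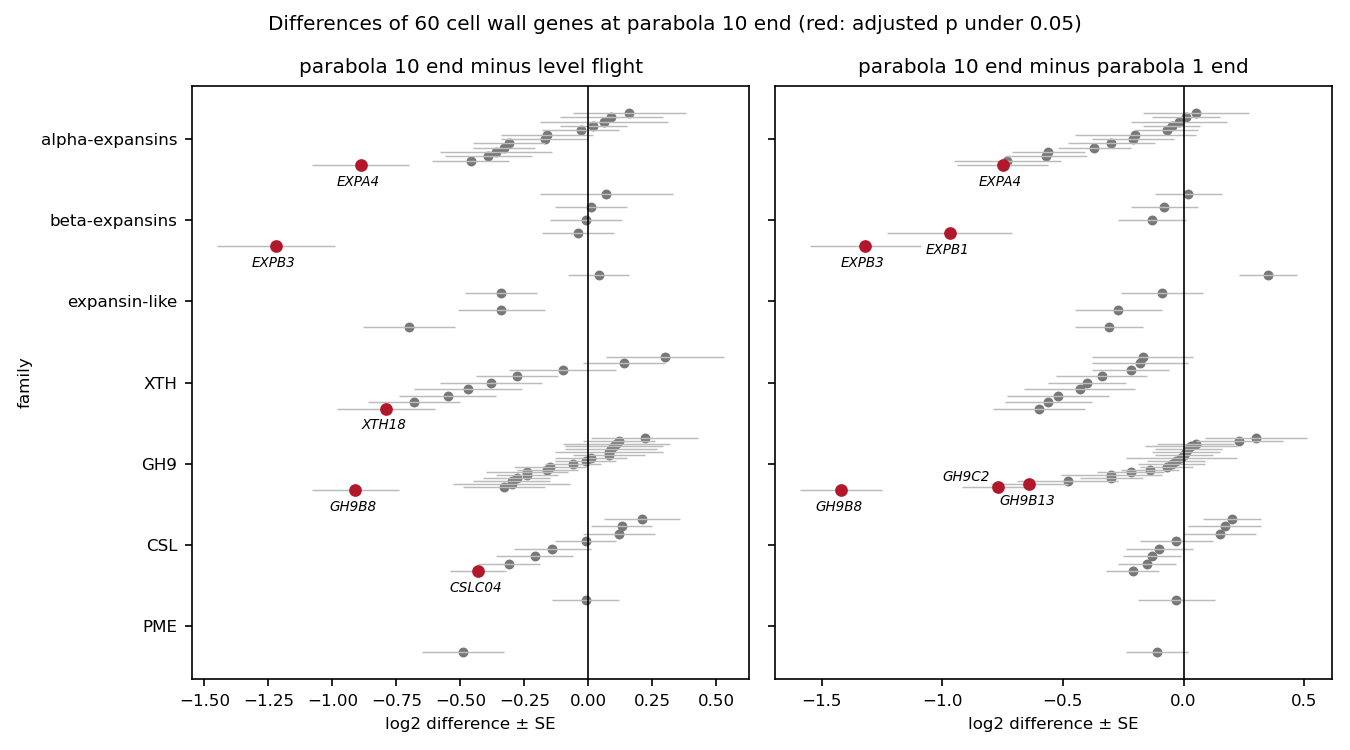
Differences of the 60 wall genes at parabola 10 end from level flight (left) and from parabola 1 end (right), in log2 units with SE from the limma fit, one point per gene and one band per family; red points have an adjusted p under 0.05. The 5 red points on the left run from -1.22 (EXPB3) to -0.43 (CSLC04) and the 6 on the right from -1.42 (GH9B8) to -0.64 (GH9B13).

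The list of root hair genes held 3 members, the expansins EXPA7 and EXPA18 and the endoglucanase GH9C1, and the xyloglucan enzyme XTH26 and the glucan synthase CSLD2 are also known from root hairs and were added after their values were seen. GH9C1 read 3.94, 3.75 and 3.95 in level flight and 4.66, 4.94 and 4.61 at parabola 1 start, and XTH26 read 4.23, 4.33 and 4.19 against 4.94, 5.13 and 5.10. Neither gene's groups overlapped. GH9C1 rose by 0.86 (SE 0.21, 1.81-fold, adjusted p = 0.0182) and XTH26 by 0.81 (SE 0.23, 1.75-fold, adjusted p = 0.0481). EXPA7 (0.34) and EXPA18 (0.11) did not pass at that stage. CSLD2 lay the other way, at 7.02, 7.05 and 6.96 against 7.23, 7.47 and 7.43, with no overlap and a value of -0.37 that did not pass (adjusted p = 0.109). In tube B, XTH26 and GH9C1 both had values of 0.64 against level flight, without a call, and in tube A both had values of 0.18. At parabola 1 end XTH26 read 5.07, 4.58 and 5.29, and GH9C1 read 4.20, 4.30 and 4.69. Both lay all above level flight there, without a call. GH9C1 had its lowest mean at parabola 3 end, 3.76 beside 3.88 in level flight. XTH26 had its lowest mean in level flight, and all arrays of the other tubes exceeded the level flight mean of 4.25 except 4.14 at parabola 3 end. EXPA18 was lowest in tube A, at 2.80, 2.94 and 2.78 against 3.24, 3.13 and 3.32 in level flight. The value of -0.39 did not pass. Parabola 10 end was nearly as low for EXPA18, at 3.07, 2.89 and 2.58, also all below level flight and without a call.

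Among the glucan synthases, CSLC04, which makes the glucan backbone of xyloglucan, was called lower in 3 tubes, by less than 1.5-fold. It read 7.52, 7.61 and 7.74 in level flight, 7.09, 7.23 and 7.11 at parabola 1 start, 7.15, 7.27 and 7.29 in tube A and 7.13, 7.16 and 7.29 at parabola 10 end. No array of these tubes reached the lowest of level flight. Parabola 3 end, at 7.34, 7.26 and 7.15, also lay all below level flight, but without a call. The called differences were -0.48 at parabola 1 start (SE 0.11, adjusted p = 0.0117), -0.39 in tube A (adjusted p = 0.0361) and -0.43 at parabola 10 end (adjusted p = 0.0483). Level flight was the highest of the 7 tubes, and the SD between arrays of a tube, 0.11 when pooled, was small beside most members. CSLC12, a paralogue of CSLC04, rose by 0.57 at parabola 1 start (SE 0.14, adjusted p = 0.0176), from 2.04, 2.22 and 2.12 to 2.99, 2.69 and 2.41, but it lay below the median of every array. The other CSLC paralogues, CSLC5 and CSLC6, had values of 0.26 and 0.35 at that stage and gave no call.

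CSLD2, a glucan synthase needed for the walls of tip-growing root hairs, fell in tube A. It read 7.23, 7.47 and 7.43 in level flight, 6.75, 6.77 and 6.97 in tube A and 7.38, 7.45 and 7.14 in tube B. The difference of tube A from level flight was -0.55 (SE 0.12, 1.47-fold, adjusted p = 0.00955). Tubes A and B, fixed at the same moment, differed by -0.50 (SE 0.12, adjusted p = 0.0489), the 1 call among the 61 members in that comparison, 1.64% beside 1.11% of all probe sets lower, 0.292% higher and 1.4% either way. It was lost in the fit of these 6 arrays alone, with the replicate number as a block, after cyclic loess and with all probe sets tested. Parabola 10 end was the highest tube for CSLD2, at 7.44, 7.74 and 7.35, while EXPB3, GH9B8 and EXPA4 were at their lowest there. The mannan synthase family members CSLA01 and CSLA03, and CSLB03, gave no call.

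PMEPCRF, a pectin methylesterase, passed the F test (adjusted p = 0.0294). It was lower at parabola 1 end (2.91, 2.65 and 2.86) and parabola 10 end (2.63, 2.78 and 2.93) than in level flight (3.17, 3.24 and 3.42), without overlap. The values of -0.47 and -0.49 did not pass singly. PME61 lay below the array medians and gave no call. PMEAMT, the phospholipid gene, had tube means that differed by at most 0.22 and gave no call.

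Several members sit side by side on their chromosomes, and neighbours did not all share a course. XTH18 and XTH19 are adjacent on chromosome 4. XTH19 was at 2.40, 2.20 and 2.22 in level flight and 2.91, 2.76 and 2.74 at parabola 1 end, a value of 0.53 that did not pass, where XTH18 had -0.45. XTH19 passed the F test (adjusted p = 0.0082), with its lowest mean in tube B (1.90 ± 0.18), but lay below the median of every array. GH9B9, GH9B10, GH9B11 and GH9B12 follow each other on chromosome 2, and EXPA21, EXPA22, EXPA23, EXPA25 and EXPA24 lie together on chromosome 5. None of these 9 genes was called. Probe sets of such near copies may bind RNA of their neighbours, so their values are uncertain.

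Other wall genes, from lists that do not overlap the 61, were tested in the same fit. The 6 genes of the same families that carry another symbol gave none. The 28 further wall genes were mostly of the TBL family of polysaccharide acetylation. PRP39 and PRP39-2, caught by their letters, belong to RNA processing but stay in all counts of the 28. Against level flight, 2 of the 28 rose at parabola 1 start, 7.14% beside 1.41% of all probe sets higher and 4.16% either way. In tube A 3 rose, 10.7% beside 1.65% higher and 5.14% either way. At parabola 10 end 1 fell, 3.57% beside 0.972% lower and 1.45% either way. The F test called 5 of the 28, 17.9% beside 7.91% of all probe sets. At parabola 10 end, 12 of the 28 had all 3 arrays below those of parabola 1 end, 42.9% beside 10.5%. All above was 1, 3.57% beside 7.97%, and it was PRP39-2, no wall gene. Against level flight, 8 lay all below, 28.6% beside 10.6%, and 3 all above, 10.7% beside 10.5%. Those 3 were PRP39, PRP39-2 and TBL39, so that TBL39 was the only wall gene among them. TBL25, whose protein acetylates mannan, rose by 0.76 at parabola 1 start (SE 0.14, adjusted p = 0.00188) and by 0.66 in tube A. TBL39 rose by 0.41 at parabola 1 start, and in tube A TBL28 rose by 0.67 and TBL33 by 0.58. TBL33 was also higher in tube A than in tube B, by 0.74 (adjusted p = 0.0153). It was the 1 call of the 28 there, 3.57% beside 0.292% of all probe sets higher and 1.4% either way. TBL38 fell by 0.51 at parabola 10 end (SE 0.10, adjusted p = 0.0128). COB, which directs cellulose deposition, was lower at parabola 10 end than at parabola 1 end, by -0.34 (SE 0.09, adjusted p = 0.0498). The median of the 28 at parabola 10 end against level flight was -0.16, the same as for the 61.

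At parabola 10 end against level flight the count of called members went from 5 to 2 without level flight replicate 1 or 2 or parabola 10 end replicate 1 or 3, to 1 without level flight replicate 3 and to 0 without parabola 10 end replicate 2, while the differences themselves kept their sign. Without level flight replicate 1, 1 of the 2 was among the 5. Against parabola 1 end the count went from 6 to 3 without parabola 1 end replicate 3 or parabola 10 end replicate 3, and those of GH9B8, EXPB3 and GH9C2 were made whichever array was left out. At parabola 1 start the count went from 5 to 2 without level flight replicate 1 or parabola 1 start replicate 1 or 3, to 3 without level flight replicate 2, and to 1 without level flight replicate 3 or parabola 1 start replicate 2. Without parabola 1 start replicate 1, 1 of the 2 was among the 5. The call of XTH26 at parabola 1 start was lost in 14 of the 21 fits that left out 1 array, that of CSLC04 at parabola 10 end in 17, that of EXPB1 in 15, that of GH9B8 in tube A in 12 and that of CSLD2 between tubes A and B in 15. In tube A the count went from 5 to 3 without level flight replicate 1 or 2 or tube A replicate 2 and to 2 without level flight replicate 3, and GH9C2 was called throughout. Without level flight replicate 2 or tube A replicate 2, 2 of the 3 were among the 5. With the tube as a random block, no member was called at parabola 1 start or at parabola 10 end against level flight, and GH9B8 alone was called between parabola 10 end and parabola 1 end.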

How the data were processed

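The deposited values are log2 expression values per probe set, made by the authors with RMA, per the submitters' processing notes, which name RMA, oligo, limma, R 4.0.0 and TAIR10. Its quantile step hides any shift shared by all transcripts. The table held 38408 probe sets and 21 arrays, and all its value columns were mapped. The platform annotation named 17481 probe sets, 16722 of them with 1 gene, of which 16574 matched RefSeq (TAIR10.1) by Entrez identifier. No coordinates are given, and 20927 probe sets were unnamed here.

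All 17481 named probe sets were fitted with limma 3.58.1 (lmFit, eBayes) in R 4.3.3: 7 group means, 14 residual degrees of freedom, two-sided moderated tests for 8 comparisons and a moderated F test, each adjusted by Benjamini-Hochberg, with a threshold of 0.05. The fit was tested on simulated data. Figures used Python 3.11.15 with matplotlib 3.10.9.

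The text names every member past the threshold in any test and the brightest member of each family; further members were named after their values were seen. The members and lists were chosen with earlier results of these data known. Lists fixed for root, root hair, xylem, primary wall and shoot genes had 2, 3, 0, 1 and 2 measured genes; those for root and root hairs hold members only. Counts among bright probe sets and of tubes that were lowest were added after seeing the data. Alternatives were a robust variance trend, bright probe sets only, only the arrays compared, a replicate block, cyclic loess, array weights, all probe sets, the mean of a gene's probe sets, the tube as a random block and leaving out each array. The number of arrays limits the precision.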

Additional observations from a re-analysis of the deposited data

Results flagged for a closer look

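CSLD2 differed between midpoint tubes A and B, which crew members fixed at the same moment. Against the same level flight arrays it read -0.55 in tube A and -0.06 in tube B, and the direct test of tube A against tube B gave -0.5 (SE 0.12, limma adjusted p = 0.0489, lower in 3 of 3 arrays). No cause was tested.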

How the results depend on the processing

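None of the 22 pairwise calls changed its sign in any setting. With the tube as a random block, which was not fitted for tubes A and B singly, the counts of called members were 0 at parabola 1 start, 0 at parabola 10 end against level flight, 1 between parabola 10 end and parabola 1 end and 1 in the F test. Its correlation of 0.221 rests on 1 pair of tubes, because duplicateCorrelation gave -0.0726. With all probe sets tested the counts were 3 at parabola 1 start, 3 at parabola 10 end against level flight, 3 between parabola 10 end and parabola 1 end, 8 in the F test and 0 between tubes A and B; more features were tested there. With bright probe sets alone, 3 were called at parabola 1 start and 1 at parabola 1 end, where a robust variance trend and the mean of a gene's probe sets also gave 1. With only the arrays compared, tube A gave 3 and tube A against tube B 0, from fewer samples; cyclic loess also gave 0 there, and the cause was not tested. Leaving out 1 array gave 1 to 5 at parabola 1 start, 2 to 6 in tube A, 0 to 1 in tube B, 0 to 2 at parabola 1 end, 0 at parabola 3 end, 0 to 7 at parabola 10 end against level flight, 0 to 1 between tubes A and B, 3 to 9 between parabola 10 end and parabola 1 end and 9 to 16 in the F test. Tube B moved from 0 without tube B replicate 2, and parabola 1 end moved from 0 to 1 or 2 without tube A replicate 1, 2 or 3, tube B replicate 2, parabola 1 end replicate 2, parabola 3 end replicate 1 or 2 or parabola 10 end replicate 1 or 2. Between tubes A and B the count was 0 without any one array other than level flight replicate 1, tube A replicate 3, tube B replicate 1 or 3, parabola 1 end replicate 1, parabola 3 end replicate 1 or parabola 10 end replicate 2. The replicate block gave 0 between tubes A and B and changed no other count by over 1.5 times. The numbers only name root pools of different tubes: deviations of same-numbered arrays correlated from -0.106 to 0.153 (median 0.00472), and 8 of 21 arrays correlated best with their own number.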
